A study of Mus musculus with 12 samples.

Results

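MHC class I molecules carry peptides from inside a cell to its surface, where cytotoxic T cells read them, and the ligands of PD-1 on the same surface restrain those T cells. The copy number of the genes of this pathway was read from WES of the primary murine PDAC lines 15376T and 14837T, with a single library each. The 10 genes were chosen by name for their role: the class I heavy chains H2-K1 and H2-D1, their light chain B2m, the genes Psmb8, Tap1, Tap2 and Tapbp that make and load the peptides, the transactivator Nlrc5, and the PD-1 ligands Cd274 and Pdcd1lg2. All 10 were found in the segment tables of both lines, among 22035 gene names in each.

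Peptides are cut by the proteasome, pumped into the endoplasmic reticulum by the TAP transporter and loaded there on a heavy chain that has paired with beta-2-microglobulin. NLRC5 drives transcription of many of these genes, and interferon gamma raises the class I genes together with PD-L1, the product of Cd274. Loss of class I genes is a known way in which tumors escape T cells, and gain of the chromosome region with both PD-1 ligands is known from several cancers.

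Both lines came from C57BL/6 mice that carried p48-Cre, ROSA_rtTA and Trp53 L/+ among their alleles, so that Cre was driven by the p48 (Ptf1a) promoter of the pancreas, and the culture medium contained doxycycline. The labels give either line the genotype WT, which here means that Lin28b had not been knocked out. Each line was derived once, so a difference between the libraries is a difference between 2 lines and not between conditions. The age of the mice was not given in the sources used here, and a cell type cannot be checked in DNA. The labels name an Agilent SureSelect kit for the exome capture and the methods a NimbleGen library, both of them designed for human exons, whereas the DNA was from mouse.

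A segment is a stretch of neighboring bins with a common coverage, and all genes in it share its values. Each gene was given the log2 ratio of its segment to the copy-number reference, the integer copy number called by the authors, the B-allele fraction (BAF, how much of the coverage at variant sites carries the alternative base) and the mean read depth. More than 2 copies, which corresponded to a log2 above 0.2, was called gained, and fewer than 2, a log2 below -0.25, was called lost. The mean depth was 43.4 in 15376T and 47.5 in 14837T. Because there were no replicates, the spread was taken from autosomal segments with a call of 2 copies, whose log2 had an SD of 0.090 in 15376T (103 segments) and of 0.095 in 14837T (96 segments). The call itself limits how far those segments can vary, and no test between the lines was possible.

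None of the 10 genes was called lost in either line, whereas 32.1% of all names were lost in 15376T and 27.7% in 14837T. The 10 genes lay in only 4 segments in 15376T and 5 in 14837T, so they are not 10 separate measurements. In 15376T all 10 were called at 2 copies, and 8.79% of all names were gained. In 14837T 8 of the 10 were called gained, against 20.6% of all names, and B2m and Nlrc5 were at 2 copies. The genes were chosen with earlier results of these data known. The shares of all names are thus given as description, and enrichment was not tested. These 8 genes lay in 3 segments on chromosomes 17 and 19, so they are not 8 separate measurements. At an absolute log2 of 0.5 in place of the call, 0 of the 10 would be gained. A call that differed between the lines was made for 8 of 10 genes and for 31.3% of the names with 1 call in each line, and all 8 went from 2 copies in 15376T to a gain in 14837T, a pattern of 12.8% of those names.

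**Figure D1:**
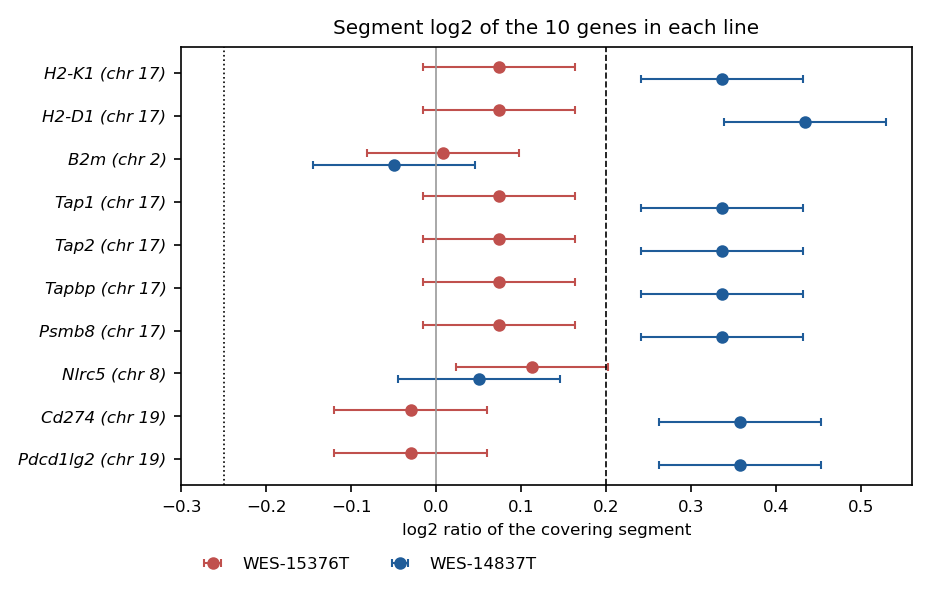
Log2 ratio of the covering segment (horizontal axis, no unit) for each of the 10 genes (vertical axis) in 15376T (red) and 14837T (blue); bars are 1 SD of the log2 of the 2-copy autosomal segments of that line, and the dashed and dotted lines are the gain and loss thresholds of 0.2 and -0.25. The points of both lines lie close together for B2m and Nlrc5, and the 8 genes on chromosomes 17 and 19 lie above the gain threshold in 14837T.

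The heavy chains H2-K1 and H2-D1 present the peptides themselves, and they lie 1.26 Mb apart in the MHC on chromosome 17. H2-K1 (chr17:33996012-34000619) had a segment log2 of 0.074 in 15376T and 0.34 in 14837T. H2-D1 (chr17:35263094-35267497) had the same 0.074 in 15376T and 0.43 in 14837T. Thus the heavy chains shared 1 segment at 2 copies in 15376T and lay in 2 neighboring gained segments in 14837T. Their copy ratios to the reference in 14837T were 1.26 and 1.35, and 3 copies in every cell would give a log2 of 0.58.

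The segment of 15376T ran from 17.1 to 40.9 Mb (4453 bins, BAF 0.047, depth 46.4). In 14837T the segment with H2-K1 began at the same base and ended at 34718577, within Tnxb (3475 bins, BAF 0.041, depth 58.6). From 34718593 on, a segment of 2.35 Mb up to Gabbr1 held H2-D1 (839 bins, BAF 0.039, depth 66.9), and the next segment fell back to 0.32. The border was 0.72 Mb from H2-K1 and 0.54 Mb from H2-D1. The step of 0.098 at this border was slightly larger than the SD of 0.095, so the levels of H2-K1 and H2-D1 in 14837T were set apart by about 1 SD. That SD is of single segments, and a difference between segments spreads more. The step was below the combined SD of both lines, 0.13. The density of bins moved with the step, from 197 to 356 and then to 98 bins per Mb in these 3 segments, and its part in the result was not tested. Among all segments at 2 copies, log2 and the density of bins were correlated with a Spearman rho of 0.45 in 15376T (n = 103) and 0.23 in 14837T (n = 96), a description over segments that share a library.

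**Figure D2:**
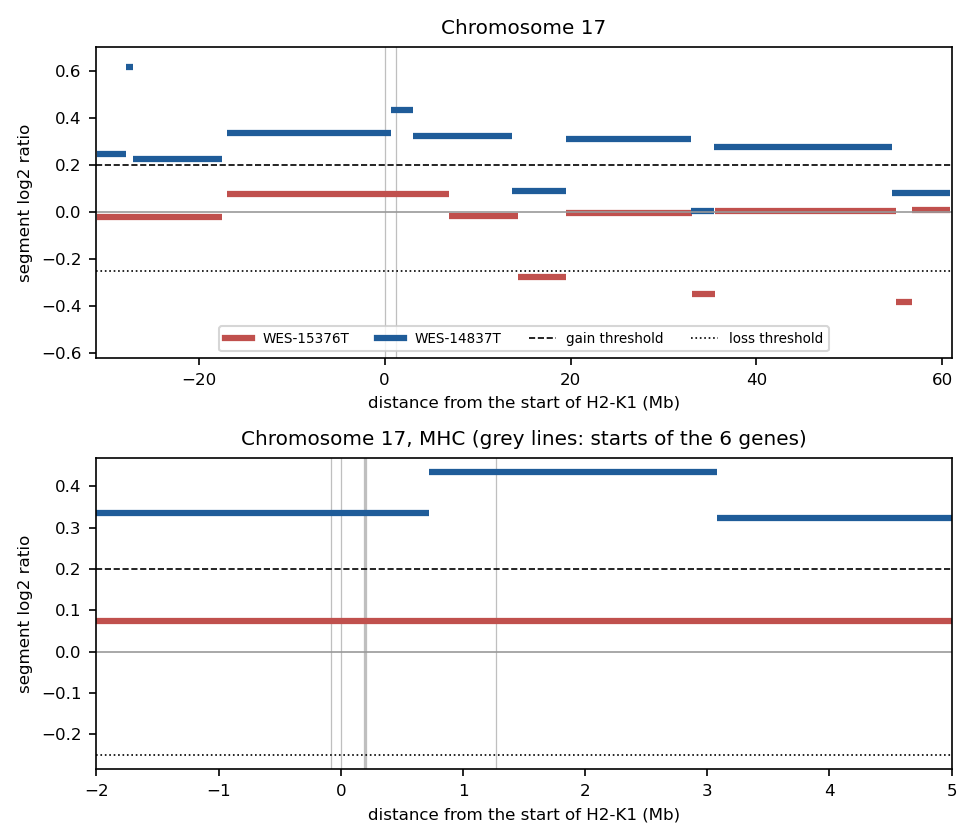
Segment log2 ratio (vertical axis) along chromosome 17, as distance from the start of H2-K1 in Mb (horizontal axis), in 15376T (red) and 14837T (blue), with the whole chromosome above and the MHC below; grey lines are gene starts (H2-K1 and H2-D1 above, the 6 genes below). In 14837T the border between the segments at 0.34 and 0.43 falls between H2-K1 and H2-D1, and in 15376T a single segment at 0.074 covers both.

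The gain of the MHC in 14837T was not limited to it. Of the 11 segments of chromosome 17 in that line 8 were gained, with 84.1% of the covered length, and 0 were lost. The segment of H2-D1 had the second highest log2 of the 11, below a segment of 64 bins near the start of the chromosome (0.62), and the segment of H2-K1 had the third. In 15376T 0 of 9 segments of this chromosome were gained and 3 were lost, none of them with a gene of the MHC described here.

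The segments also cover the control regions of these genes. The promoter windows (250 bases before to 50 after the start, RefSeq, GRCm38.p6) are shown for the heavy chains because they lie on either side of the border in 14837T and the only bin listed for H2-D1 overlaps its window. The H2-K1 window is chr17:34000298-34000597 on the minus strand, inside the annotated span of the gene, and the H2-D1 window chr17:35262844-35263143 on the plus strand. Capitals mark the letters GGGATTCCC, the core of an NF-kB site, searched on both strands.
H2-K1: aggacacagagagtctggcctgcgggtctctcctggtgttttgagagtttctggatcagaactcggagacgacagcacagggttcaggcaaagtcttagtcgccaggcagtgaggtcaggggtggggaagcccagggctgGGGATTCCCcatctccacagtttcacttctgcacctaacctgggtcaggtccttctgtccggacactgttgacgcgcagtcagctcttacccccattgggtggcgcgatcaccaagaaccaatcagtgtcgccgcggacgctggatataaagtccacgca
H2-D1: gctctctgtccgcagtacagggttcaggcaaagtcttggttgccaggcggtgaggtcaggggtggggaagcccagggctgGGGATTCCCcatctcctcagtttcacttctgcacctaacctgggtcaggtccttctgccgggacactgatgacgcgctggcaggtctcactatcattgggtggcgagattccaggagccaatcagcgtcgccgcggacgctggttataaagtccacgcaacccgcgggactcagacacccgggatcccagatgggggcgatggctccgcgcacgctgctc
The windows of the heavy chains matched at 214 of 239 aligned bases, whereas no other pair among the 8 windows of these genes had more than 161 matching bases. The letters occurred in 3 of the 8 windows, those of H2-K1, H2-D1 and Pdcd1lg2, and in 0.353% of 32851 promoters. Other forms of the NF-kB site were not searched. The similar windows of H2-K1 and H2-D1 are not separate cases, and enrichment was not tested. How the authors' alignment placed reads from such similar sequences was not given in the sources used here. Either window lay wholly inside the segment of its gene in both lines.

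The own coverage of a gene was listed only where its segment passed an absolute log2 of about 0.40, and of the 10 genes only H2-D1 in 14837T was listed. It had 1 bin of 150 bases (chr17:35263060-35263209), of which 84 bases lay in the promoter window and 116 in the gene, and the same bin was also listed under H2-L. The depth of this bin was 35.0, against a mean of 66.9 for the segment, a ratio of 0.52. The gene itself was therefore sampled by a single bin whose depth stood below that of the segment that gave its call. Of the 128 genes listed in this segment, 6 had a lower depth, and of the 18 genes with 1 bin, 5 did. Those 18 ranged from 24.4 to 137 with a median of 48.3, so a low depth in 1 bin was not particular to H2-D1.

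The other class I related genes named H2 in this segment were more deeply covered. The 24 listed H2 genes, H2-D1 and H2-L included, had a median depth of 88.6, and 18 of them lay above the mean of the segment, whereas the 104 other genes had a median of 66.2. The lowest H2 gene was H2-Bl with 32.0 and the highest H2-T9 with 131. An H2 gene had a median of 3 bins (1 to 6) and another gene a median of 5. A raw depth is not corrected for capture, and the part of sequence shared among H2 genes in these depths was not tested.

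**Figure D3:**
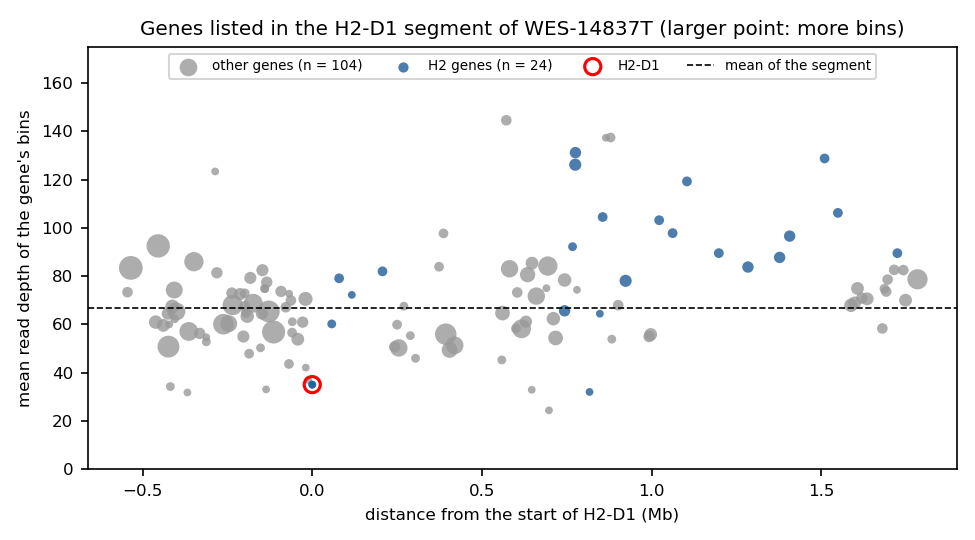
Mean read depth of the bins of each gene (vertical axis, reads per base) listed in the segment with H2-D1 in 14837T, against the distance of its start from H2-D1 in Mb (horizontal axis), with the area of a point growing with its number of bins. H2-D1 (red ring, depth 35.0) lies below the mean of the segment of 66.9 (dashed line), and 18 of the 24 H2 genes (blue) lie above it.

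B2m encodes beta-2-microglobulin, the light chain without which no class I molecule is stable at the surface. B2m (chr2:122147687-122153082) had a log2 of 0.0081 in 15376T and -0.049 in 14837T. The light chain was therefore at 2 copies in both lines, as were 40.5% of all names, while both heavy chains were gained in 14837T. The difference between the lines, 0.057, was smaller than the combined SD of 0.13. The covering segment was 20.8 Mb long in 15376T (3387 bins, BAF 0.091, depth 50.9) and 83.1 Mb in 14837T (8567 bins, BAF 0.21, depth 49.1), and the gene lay 10.4 and 39.1 Mb from the nearer border. The BAF of 0.21 was the highest among the segments of the 10 genes in that line, above 89.1% of the autosomal segments with a BAF. The number of variants behind it was not part of the tables.

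The promoter window of B2m, from the reference genome, is printed to show the control region of the light chain, which lay in a segment at 2 copies in both lines. It is chr2:122147437-122147736 on the plus strand, and capitals mark a match to GAAANNGAA, the core of an interferon response element, searched on both strands.
B2m: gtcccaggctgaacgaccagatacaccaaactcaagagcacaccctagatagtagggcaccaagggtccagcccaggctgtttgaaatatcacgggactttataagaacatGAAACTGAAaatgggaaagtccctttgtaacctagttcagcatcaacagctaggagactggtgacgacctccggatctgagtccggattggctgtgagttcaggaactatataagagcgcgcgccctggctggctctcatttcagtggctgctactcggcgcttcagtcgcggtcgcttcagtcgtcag
The letters GAAANNGAA were found in 2 of the 8 windows, those of B2m and Cd274, and in 8.56% of all promoters. Other forms of the element were not searched. A window without these exact letters, such as that of H2-K1 or H2-D1, may therefore still hold such an element.

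Psmb8 is a catalytic subunit of the immunoproteasome, Tap1 and Tap2 form the peptide transporter, and Tapbp (tapasin) holds the empty heavy chain at the transporter. All 4 lie in the MHC near H2-K1, and Tap1 (chr17:34187556-34197225), Psmb8 (chr17:34198195-34201454) and Tap2 (chr17:34204479-34216321) are direct neighbors with gaps of 0.97 and 3.02 kb. Tapbp (chr17:33919478-33929290) lies 66.7 kb before H2-K1. These genes shared the segment of H2-K1 in both lines, and so carried its log2 of 0.074 in 15376T and 0.34 in 14837T. Of the 4, Tap2 was the nearest to the border in Tnxb, at 0.50 Mb, and Tapbp the farthest, at 0.79 Mb. None had a depth of its own in the gene tables, and their values cannot be told apart from each other.

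Nlrc5 encodes the transactivator of the class I genes and is the only regulator among the 10. Nlrc5 (chr8:94434335-94527272) had a log2 of 0.11 in 15376T and 0.050 in 14837T, at 2 copies in both. The difference of 0.062 was below the combined SD of 0.13. In either line it lay in a short segment, 2.06 Mb long, that stood above both neighbors. In 15376T (474 bins, BAF 0.11, depth 49.3) the neighbors were at -0.18 and -0.14, and in 14837T (554 bins, BAF 0.060, depth 50.9) at -0.16 and -0.26, the last one called at 1 copy. The borders of the segment were not the same in the 2 lines, since it ran from 93.3 to 95.3 Mb in 15376T and from 94.0 to 96.0 Mb in 14837T. Nlrc5 itself was 0.80 Mb from the nearer border in 15376T and 0.45 Mb in 14837T. The density of bins moved with this pattern in both lines, 230 bins per Mb against 82.8 and 29.4 in 15376T, and 269 against 70.5 and 13.8 in 14837T, and its part in the result was not tested.

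Cd274 encodes PD-L1 and Pdcd1lg2 encodes PD-L2, both ligands of PD-1 on T cells, and the genes lie 22.8 kb apart on chromosome 19. Cd274 (chr19:29362107-29388095) and Pdcd1lg2 (chr19:29410919-29472927) had a log2 of -0.030 in 15376T and 0.36 in 14837T. By log2 the PD-1 ligands thus differed more between the lines than any of the other 8 genes, by 0.39 with a combined SD of 0.13. This difference was larger than that of 85.6% of 2392 windows of 1 Mb, so larger differences between these lines were common elsewhere. The corresponding percentages were 83.9% for H2-D1, 74.7% for H2-K1 and its 4 neighbors, 32.1% for Nlrc5 and 30.3% for B2m.

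The segment with the PD-1 ligands ended near the same place, within or next to Htr7 at 36.0 Mb, in both lines (1577 bins, BAF 0.11, depth 46.8 in 15376T, and 1794 bins, BAF 0.056, depth 65.2 in 14837T). On the other side it began at 12.5 Mb in 15376T and at 11.1 Mb in 14837T. In 15376T the segment before it was gained (0.42) and the one after it was at 2 copies (0.065), whereas in 14837T both were gained (0.50 and 0.48). The PD-1 ligands thus lay outside the gained stretch of chromosome 19 in 15376T and inside it in 14837T, where the segment was the lower one between its neighbors. Gained segments made up 15.8% of the covered length of chromosome 19 in 15376T and 94.2% in 14837T. The density of bins was low in this segment, 67.1 and 72.2 per Mb, against 165 per Mb in the segment after it in either line.

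The Cd274 window (chr19:29367188-29367487, plus strand, inside the annotated span of the gene) is printed because its segment differed most between the lines by log2 among these genes. Capitals mark the GAAANNGAA match, which lies on the opposite strand.
Cd274: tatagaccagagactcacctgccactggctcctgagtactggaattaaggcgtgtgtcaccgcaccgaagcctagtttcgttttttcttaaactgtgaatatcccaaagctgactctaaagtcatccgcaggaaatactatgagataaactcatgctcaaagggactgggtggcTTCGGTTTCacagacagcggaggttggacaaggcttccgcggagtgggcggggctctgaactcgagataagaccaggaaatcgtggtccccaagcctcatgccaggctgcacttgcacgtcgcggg

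**Figure D4:**
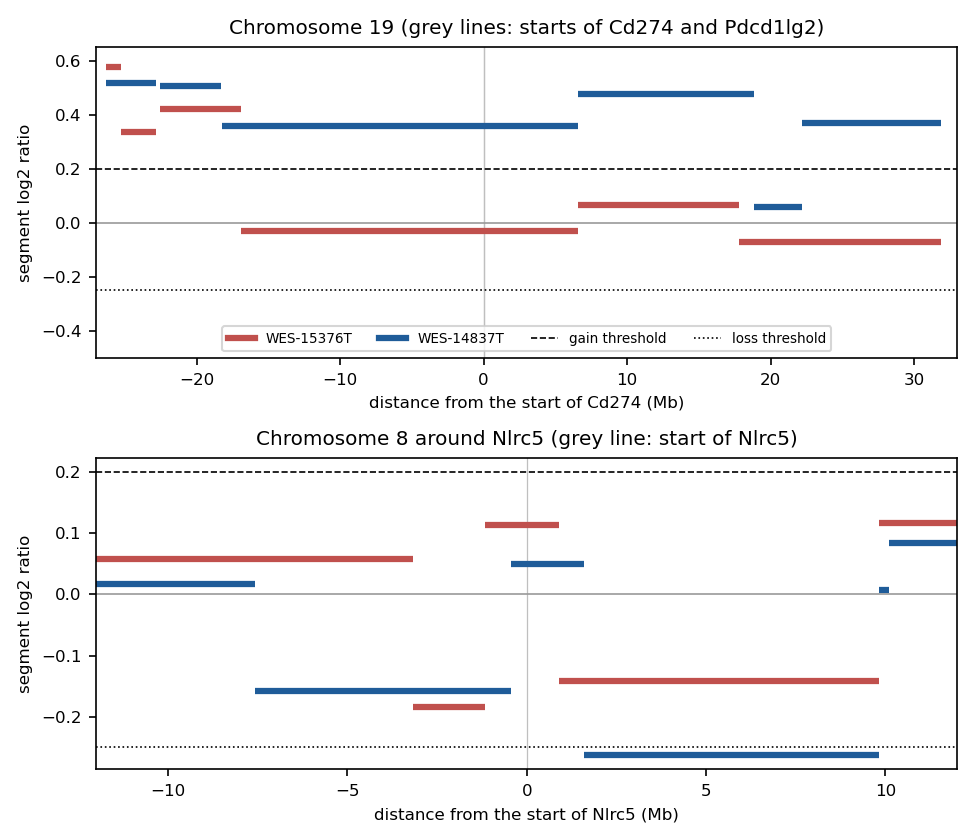
Segment log2 ratio (vertical axis) in 15376T (red) and 14837T (blue) along chromosome 19, as distance from the start of Cd274 in Mb, and along chromosome 8 around Nlrc5, as distance from its start in Mb; dashed and dotted lines are the gain and loss thresholds. The segment with Cd274 and Pdcd1lg2 is at -0.030 in 15376T and 0.36 in 14837T, and the short segment with Nlrc5 stands above its neighbors in both lines.

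Ordered by log2, the genes of 14837T ran from H2-D1 (0.43) over the PD-1 ligands (0.36) and the H2-K1 segment (0.34) to Nlrc5 (0.050) and B2m (-0.049). Steps of 0.076 and 0.021 among the gained genes were within the SD of 0.095, and the step of 0.29 from the H2-K1 segment to Nlrc5 was larger than the SD. The step from Nlrc5 to B2m, 0.099, was slightly larger than the SD, which is of single segments, and below the combined SD of 0.13. In 15376T the order ran from Nlrc5 (0.11) over the MHC (0.074) and B2m (0.0081) to the PD-1 ligands (-0.030), and no neighbors in that order differed by more than the SD of 0.090. Set by depth in place of log2, each against the 2-copy segments of its line, the difference between the lines (14837T minus 15376T) was 0.43 for the PD-1 ligands, 0.48 for H2-D1 and 0.29 for H2-K1, so the order of the first 2 changed.

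Of 19 other genes of the pathway, 4 were gained and 4 lost in 15376T, where 8.79% of all names were gained and 32.1% lost. In 14837T 4 were gained and 5 lost, which is near the 20.6% and 27.7% of all names. Their median log2 was 0.056 in 15376T and -0.036 in 14837T, beside -0.029 and -0.049 over all names. A different call in the lines was made for 5 of the 19, also near the 31.3% of all names. Psmb9, the immunoproteasome subunit next to Tap1, and Jak2, a kinase behind the interferon gamma receptor, were at 2 copies in 15376T. Both were gained in 14837T (0.34 and 0.36), where they shared the segments of H2-K1 and of Cd274. Jak1, listed as a kinase of the same receptor, was instead lost in both lines (-0.59 in 15376T and -0.39 in 14837T). Erap1, which trims peptides to the length that class I binds, was at 2 copies in 15376T (-0.091) and lost in 14837T (-0.53). Its own 19 bins in 14837T had a depth of 48.4, above the 33.9 of the segment and close to the 47.5 of the 2-copy segments. A raw depth is not corrected for capture, and no own depth of Erap1 was listed in 15376T to set beside it. In the opposite direction Irf2, a transcription factor of the interferon response, was called at 4 copies in 15376T (0.89) and at 2 in 14837T (-0.11), with a depth of 76.6 in its own 11 bins in 15376T against 90.8 for the segment. Tapbpl, a peptide editor related to tapasin, was gained in 15376T (0.33) and not in 14837T (-0.045).

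In both lines 4 of the 19 genes were lost and 2 gained. The share of all names lost or gained in both lines was not computed, so these counts have no background beside them. The 4 losses are not separate measurements, since Psme1 and Psme2 shared a segment in either line. Ifngr2, a chain of the interferon gamma receptor, was lost with a log2 of -0.65 in 15376T and -0.49 in 14837T, and its own 6 bins had a depth of 26.7 and 38.6. Rfx5, a subunit of the factor that binds class I and class II promoters with NLRC5 or CIITA, was gained with 0.59 and 0.62, and its own 9 bins had a depth of 90.1 and 92.7. These genes were thus at the same call in 15376T and 14837T, unlike the genes of the MHC.

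The rest of the MHC followed the 6 genes described above. Of 16 class Ib genes of the MHC, some of which present restricted sets of ligands, 14 had an entry and H2-Q6 and H2-Q7 had none. All 14 were at 2 copies in 15376T and gained in 14837T, with log2 from 0.32 to 0.43, a pattern of 12.8% of the names compared. The 14 are not separate measurements. In 15376T they shared the segment of H2-K1 and H2-D1, and in 14837T they lay in the segment of H2-D1 or the next one. The 9 class II genes in the MHC, H2-Aa and H2-Ab1 among them, shared the segment of H2-K1 and its values. Outside the MHC, Cd74, the invariant chain, and Ciita, the class II transactivator related to Nlrc5, were lost in both lines (-0.56 and -0.54 in 15376T, -0.44 and -0.40 in 14837T).

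**Figure D5:**
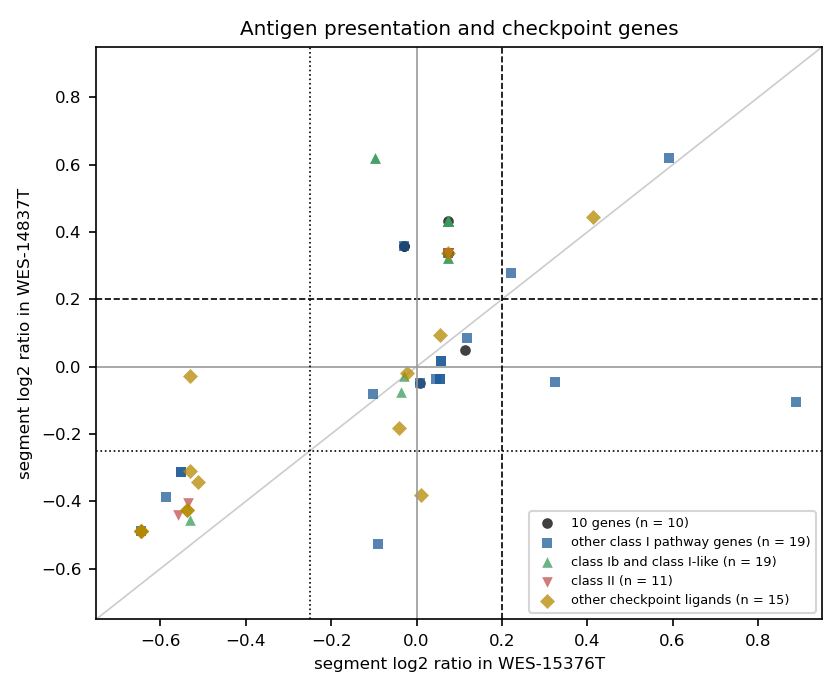
Segment log2 ratio in 14837T (vertical axis) against 15376T (horizontal axis) for the 10 genes (black) and 4 lists of related genes, with equal values on the grey diagonal and the gain and loss thresholds as dashed and dotted lines. Genes of the MHC lie at 0.074 in 15376T and between 0.32 and 0.43 in 14837T, and Irf2 lies farthest to the right (0.89).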

How the data were processed

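DNA of 15376T and 14837T was captured and sequenced on an Illumina NovaSeq, with 1 library per line. The wild-type tail DNA and the 9 RNA-seq samples were not analysed here. The authors deposited segments and genes as separate tables per line, with the columns of CNVkit. In them the authors gave log2 ratios, which set the coverage against that of an unnamed reference. The deposited BAF is a fraction between 0 and 1. The deposited read depth is raw coverage that was not normalized, and the spread between bins was not part of the tables. The aligner, the reference and the filters were not given in the sources used here, and the submitters' processing notes name the build mm10. The weights were not used. Integer copy numbers followed the default CNVkit thresholds with 0 exceptions in each line. Starts were rewritten to count from 1.

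Genes were found by name in the segment tables, and names with more than 1 call (47 in 15376T, 53 in 14837T) stayed out of the percentages. Gene positions came from RefSeq on GRCm38.p6, which overlapped 99.2% and 99.6% of the genes listed in 15376T and 14837T. Windows of 1 Mb were kept where both lines covered at least 50%. The combined SD was the root of the summed squares of the SDs. Promoters were present for 8 of the 10 genes, and not for Tap2 and Nlrc5; of 2 windows for H2-K1 the one with its gene ID was used. Windows were aligned pairwise with Biopython 1.88. Steps ran in Python 3.11.15 with numpy 2.4.6, pandas 2.3.3, scipy 1.17.1 and matplotlib 3.10.9 and were tested on made-up tables with known calls. The members and the gene lists were chosen with earlier results of these data known. Besides the 10 genes, the text names from each list up to 5 genes with the largest difference between the lines, up to 3 with the largest absolute log2 in each line, and the genes at the nearer border. An allele of the mice and a border gene are not reported here. H2-L, H2-Bl, H2-T9, H2-Q6, H2-Q7, Gabbr1, Vtcn1, Cd86, Pvr, Nectin2, Mr1, Hfe, Psme1, Psme2 and Jak1 were named after their values were seen. Alternatives were other call thresholds, recentred log2, a match by position, the log2 of the gene table, depth in place of log2, and other sets of names.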

Additional observations from a re-analysis of the deposited data

How the results depend on the processing

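Of 61 alternative values for the segment log2 of the genes, all 61 stayed within 1 SD of the reported value. This count had little room to come out otherwise. Recentring moved all genes of a line by the same amount, which was below the SD. A match by position and the log2 of the gene table returned the same segment value. Values near 0 crossed it under recentring on the autosomal median: Cd274 and Pdcd1lg2 moved from -0.030 to 0.010 in 15376T, still at 2 copies. The 20 alternative differences between the lines stayed within the combined SD, and 12 alternative percentages over all names within 1.5 times. Of 15 alternative counts over the 10 genes, 13 stayed within 1.5 times the reported count and 2 did not. At an absolute log2 of 0.5 in place of the copy number of the authors, 0 of the 10 genes were gained in 14837T (reported: 8), and 0 had a different call in the lines (reported: 8). Every gain of these genes therefore lay below 0.5, and at an absolute log2 of 0.3 all 8 remained. No paired analysis was possible because a single library stood for either line, and for the same reason no replicate was left out. The depth of single genes was listed for H2-D1 alone among the 10, so a change within a segment was not detectable for the other 9.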

Other observations

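Of a list of 15 ligands of other T cell checkpoints and of phagocytosis, 9 were lost in 15376T and 9 in 14837T. The shares of all names lost were 32.1% and 27.7%. In both lines 8 were lost, and the share of all names lost in both lines was not computed to set beside this. The 8 are not separate measurements, since Cd80, Cd86, Cd47 and Cd200 shared a segment, and so did Pvr and Nectin2. The median log2 of the list was -0.53 in 15376T and -0.34 in 14837T. Cd80, a ligand of CD28 and CTLA-4, Cd47, the signal that restrains macrophages, and Cd200 had a log2 of -0.65 in 15376T and -0.49 in 14837T. The own depth of Cd80 in its 7 bins was 59.7 in 15376T and 84.0 in 14837T, above the segment means of 29.1 and 34.1. Cd47 with 42.7 and 49.2 in 13 bins and Cd200 with 34.9 and 39.6 in 6 bins also lay above these means. Cd86, in the same segment, lay below them with 27.7 and 29.3 in 9 bins. These raw depths are not corrected for capture. Cd276 (B7-H3) was lost in 15376T (-0.53) and at 2 copies in 14837T (-0.029), and Icosl, the ligand of ICOS, was at 2 copies in 15376T (0.010) and lost in 14837T (-0.38). Vtcn1 (B7-H4) was gained in both lines (0.41 and 0.45). Btnl2, which lies in the MHC, shared the segment of H2-K1. In 14837T it was the other gained gene of the list.

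Of the 5 class I-like genes outside the MHC, 4 were at 2 copies in 15376T and 1 was lost, and in 14837T 2 were gained, 2 at 2 copies and 1 lost. Cd1d1 and Cd1d2, which present lipids to natural killer T cells, were at 2 copies in 15376T (-0.098) and gained in 14837T (0.62), the largest log2 in that line among the genes of the class I lists, which it shared with Rfx5. Their own depth in 14837T was 105 in 3 bins and 121 in 5 bins, with a segment mean of 77.5. Mr1 (-0.029 and -0.027) and Hfe (-0.036 and -0.075) were at 2 copies in both lines. Fcgrt, the receptor that recycles IgG and albumin, was lost in both lines (-0.53 and -0.46), with an own depth of 25.8 and 26.4 in 6 bins.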
